A study of Mus musculus with 11 samples.

Results

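The naive pluripotency transcription factors Nanog, Zfp42 (also called Rex1), Prdm14, Klf2, Klf4, Klf5, Esrrb, Nr0b1 (Dax1), Tbx3 and Tfcp2l1 were followed through an RNA-seq experiment in mouse embryonic stem cells (ESCs). They were taken by gene symbol and make up 10 of the 54838 genes counted. All 10 passed the filter on low values, more than 1 CPM (count of reads scaled to the library total) in at least 4 libraries, which left 16073 genes to test. The cells were of the E14 line, grown on gelatin with 10% Knockout Serum Replacement and 100 U/ml leukaemia inhibitory factor (LIF), and the labels name no kinase inhibitors. They were transfected with siRNA and total RNA was taken after 36 h. The groups were a control scramble siRNA (3 libraries), CMTR1 siRNA 1 (4 libraries) and CMTR1 siRNA 2 (4 libraries), which target the same transcript. CMTR1 is the cap methyltransferase that modifies the ribose of the first transcribed nucleotide of mRNA. The question put to the data is how far the RNA of each factor moved with each CMTR1 siRNA, and whether the siRNAs gave the same result.

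Naive pluripotency is the state of the epiblast before implantation, which mouse ESCs keep in culture when LIF is present. LIF acts through STAT3, and its outputs include Klf4 and Tfcp2l1, while Tbx3 and Klf5 are further factors able to sustain self-renewal. Nanog, Esrrb and the KLF factors bind each other's regulatory regions together with OCT4 (encoded by Pou5f1) and SOX2, and FGF and ERK signalling and the repressor TCF7L1 act against this network when cells leave the naive state. Zfp42 and Nr0b1 are widely used markers of that state, and PRDM14 restrains FGF receptor signalling and DNA methylation.

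RefSeq promoter sequences of GRCm38.p6 were held for 7 of the 10 genes, in 9 entries. Those for Nanog, Zfp42 and Nr0b1 are shown as examples that carry motifs of the network's own regulators in the 250 bases before the annotated start. These 3 were among the 8 factors called lower with both siRNAs. A link between motifs and the change in RNA was not tested. The octamer TTTGCAT, bound by OCT4, was searched on both strands, as was the OCT4-SOX2 composite, in which the octamer is followed, after any 1 base, by the SOX2 element ACAATG. The same was done for AGGTCA, the core element of ESRRB, for CCACCC, a box bound by KLF proteins, and for TATAAA. Capitals mark every match, and TGACCT and GGGTGG are AGGTCA and CCACCC read on the other strand. Each line is written 5′ to 3′ in the direction of transcription: Nanog from chr6:122707239-122707488 on the plus strand, Zfp42 from chr8:43307010-43307259 on the minus strand and Nr0b1 from chrX:86191525-86191774 on the plus strand.
Nanog: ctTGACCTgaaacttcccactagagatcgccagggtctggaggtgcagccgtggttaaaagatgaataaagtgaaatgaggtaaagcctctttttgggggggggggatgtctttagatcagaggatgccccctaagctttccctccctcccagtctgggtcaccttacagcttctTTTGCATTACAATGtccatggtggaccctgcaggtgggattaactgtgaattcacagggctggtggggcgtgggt
Zfp42: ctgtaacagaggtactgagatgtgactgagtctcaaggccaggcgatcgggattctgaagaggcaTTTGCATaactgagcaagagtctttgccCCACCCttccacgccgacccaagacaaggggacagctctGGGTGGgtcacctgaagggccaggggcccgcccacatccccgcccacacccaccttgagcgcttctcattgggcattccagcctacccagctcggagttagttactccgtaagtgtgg
Nr0b1: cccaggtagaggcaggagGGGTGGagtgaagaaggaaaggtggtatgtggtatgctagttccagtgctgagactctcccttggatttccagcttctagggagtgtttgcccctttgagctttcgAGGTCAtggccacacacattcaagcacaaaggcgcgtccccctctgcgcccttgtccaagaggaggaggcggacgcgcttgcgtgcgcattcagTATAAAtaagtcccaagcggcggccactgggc

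The composite lies 75 to 62 bases before the Nanog start. It was found in 2 of the 32851 RefSeq windows of this length, and both windows belong to Nanog, whose second annotated start lies just downstream. The octamer alone was in 4.12% of windows and in those of Nanog and Zfp42, where it lies 185 to 179 bases before the start. AGGTCA was in 14.0% of windows and in those of Nanog and Nr0b1. CCACCC, in 28.1% of windows, was in those of 5 of the 7 genes (Nanog, Zfp42, Klf2, Esrrb and Nr0b1), and the TATA box, in 12.4%, in those of Nr0b1 and Tfcp2l1. The CCACCC match of Nanog lies in the window of its second start, which is not shown. Nanog and Esrrb have more than 1 window each, so counts of genes and shares of windows are not alike. A STAT site of the form TTCNNNGAA, in 7.02% of windows, was in 1 of the Esrrb windows only, 178 to 170 bases before the start. The Klf4 window held none of these letters and had a GC content of 74.0%, against a median of 52.4% over all windows. A match is a run of letters and not evidence of binding.

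The 11 libraries held 6738478 to 8382318 counts in genes, and log2 CPM correlated between any pair of them with r of 0.9895 to 0.9946. The quasi-likelihood test of edgeR, with Benjamini-Hochberg adjustment over the 16073 genes and a threshold of 0.05, called 751 genes with siRNA 1, 4.67% of those tested (316 lower and 435 higher), and 1562 with siRNA 2, 9.72% (571 lower and 991 higher). With TMM factors the splits were 400 lower and 346 higher, and 734 lower and 728 higher, and with DESeq2 they were 326 and 195, and 549 and 409. Cmtr1 RNA, the siRNA target, stood at 21.3, 21.7 and 17.9 CPM in the control libraries, 21.1, 21.3, 16.2 and 18.0 CPM with siRNA 1 and 15.6, 16.8, 16.4 and 19.5 CPM with siRNA 2. The groups overlapped, and neither difference passed the test (-0.09 with siRNA 1 and -0.25 with siRNA 2 on the log2 scale, adjusted p = 0.743 and 0.144), so the RNA counts do not check the siRNA labels and the groups are named as labelled. The study's methods speak of biological replicates for sequencing, but the labels do not say which libraries of a group came from separate cultures, so the p-values measure the spread between these samples, part of which may be technical.

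The naive factors were lower with both siRNAs. With siRNA 1, 9 of the 10 were called lower, against 1.97% of all genes tested, and the exception was Prdm14. With siRNA 2, 8 were called lower, against 3.55%, the exceptions being Prdm14 and Klf5. No factor was called higher, and 8 of the 10 were called lower with both, where 142 of the 16073 genes tested were. In either direction, 347 genes were called with both. Both comparisons use the same 3 control libraries and are not independent of each other. The log2 fold changes ran from -0.58 to -0.21 with siRNA 1 (median -0.39, against 0.02 for all genes tested) and from -0.61 to -0.09 with siRNA 2 (median -0.49, against 0.03). All 10 lay below 0 in both comparisons, where 43.2% and 42.9% of all genes did. In bulk RNA, fewer cells in the naive state and less of each RNA per cell cannot be told apart.

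**Figure D1:**
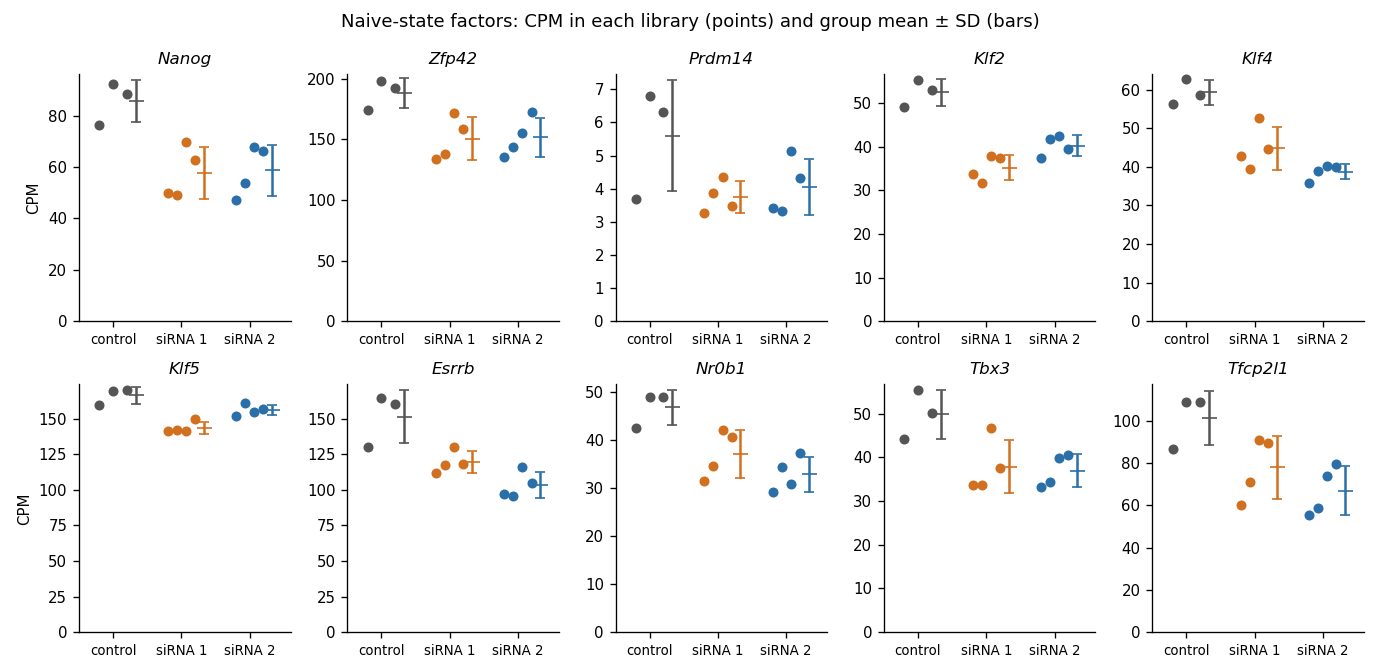
CPM of each naive-state factor (vertical axis, from 0, a separate scale in each panel) in the 3 control, 4 siRNA 1 and 4 siRNA 2 libraries, with points in replicate order and bars giving the group mean ± SD. Nanog, Zfp42, Klf2, Klf4 and Nr0b1 show every siRNA library below every control library in both siRNA groups, whereas the 3 groups of Prdm14 overlap.

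Of the homeodomain and zinc finger regulators, Nanog, the homeodomain protein that sustains self-renewal, had 76.3, 92.3 and 88.4 CPM in control replicates 1 to 3, at 49.7, 49.1, 69.7 and 62.8 CPM with siRNA 1 and at 47.3, 53.8, 68.0 and 66.1 CPM with siRNA 2. Every siRNA library lay below the lowest control. Nanog fell by 32.4% with siRNA 1 (log2 fold change -0.57, 95% interval -0.75 to -0.38, adjusted p = 5.44e-05) and fell by 31.3% with siRNA 2 (-0.54, -0.72 to -0.36, adjusted p = 5.04e-05). Zfp42, a zinc finger protein of the YY1 family, was at 173.9, 197.8 and 192.7 CPM in the controls, at 134.2, 138.2, 171.4 and 158.8 CPM with siRNA 1 and at 135.7, 143.3, 155.0 and 172.4 CPM with siRNA 2. Its highest siRNA libraries came within a few CPM of the lowest control without reaching it. The change was smaller than that of Nanog, at 0.80-fold with siRNA 1 (adjusted p = 0.00154) and 0.81-fold with siRNA 2 (adjusted p = 0.00123). Prdm14 was the least abundant factor, with 22 to 55 reads per library. It was at 3.68, 6.78 and 6.33 CPM in the controls, at 3.27, 3.86, 4.36 and 3.48 CPM with siRNA 1 and at 3.41, 3.34, 5.12 and 4.32 CPM with siRNA 2. Control replicate 1 lay among the siRNA libraries, and neither difference passed the test (log2 fold change -0.57, 95% interval -0.99 to -0.16, adjusted p = 0.104, and -0.47, -0.87 to -0.06, adjusted p = 0.141). Without that library both did (-0.80, adjusted p = 0.0178, and -0.70, adjusted p = 0.0258).

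The KLF factors, zinc finger proteins that bind CACCC and GC-rich elements and can stand in for one another in ESC self-renewal, did not move by the same amount. Klf2 was at 49.1, 55.3 and 53.0 CPM in the controls, at 33.8, 31.8, 37.8 and 37.4 CPM with siRNA 1 and at 37.4, 41.9, 42.5 and 39.4 CPM with siRNA 2. It had the largest log2 fold change of the 10 with siRNA 1, -0.58 (95% interval -0.72 to -0.43, adjusted p = 1e-06), with Prdm14 and Nanog close to it at -0.57, and fell by 23.2% with siRNA 2 (adjusted p = 0.000294). Klf4, also used in reprogramming to pluripotency, was at 56.2, 62.8 and 58.7 CPM in the controls, at 42.7, 39.4, 52.6 and 44.6 CPM with siRNA 1 and at 35.8, 39.0, 40.2 and 40.0 CPM with siRNA 2. Its order was the opposite of that of Klf2: it fell by 24.4% with siRNA 1 (adjusted p = 0.000356) and by 34.5% with siRNA 2 (log2 fold change -0.61, -0.76 to -0.46, adjusted p = 1.47e-07), the largest change of the 10 with that siRNA. Klf5 was at 159.7, 169.5 and 170.5 CPM in the controls, at 141.3, 142.0, 141.7 and 150.1 CPM with siRNA 1 and at 152.1, 161.2, 154.8 and 156.6 CPM with siRNA 2. The siRNA 1 libraries were below all controls and siRNA 2 replicate 2 was not. Klf5 fell by 13.7% with siRNA 1 (adjusted p = 0.00479), the smallest change of the 10, and with siRNA 2 its log2 fold change was -0.09 with an interval of -0.19 to 0.01 (adjusted p = 0.242).

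Among the nuclear receptors, Esrrb, an orphan receptor downstream of the Wnt and TCF7L1 axis, was at 130.0, 164.4 and 160.4 CPM in the controls, at 112.0, 117.4, 130.1 and 118.3 CPM with siRNA 1 and at 96.9, 95.9, 116.3 and 105.0 CPM with siRNA 2. The highest siRNA 1 library was level with control replicate 1, and the siRNA 2 libraries were all lower. Esrrb fell by 21.2% with siRNA 1 (adjusted p = 0.000528) and fell by 31.7% with siRNA 2 (log2 fold change -0.55, 95% interval -0.68 to -0.42, adjusted p = 6.84e-08). Nr0b1, an X-linked receptor without a typical DNA-binding domain, was at 42.5, 49.0 and 48.9 CPM in the controls, at 31.5, 34.5, 42.0 and 40.6 CPM with siRNA 1 and at 29.1, 34.4, 30.7 and 37.2 CPM with siRNA 2. All 8 siRNA libraries were below the controls, and it fell by 20.4% with siRNA 1 (adjusted p = 0.0135) and fell by 29.5% with siRNA 2 (adjusted p = 6.28e-05).

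Of the factors linked to LIF and PI3K signalling, Tbx3, a T-box factor, was at 44.2, 55.4 and 50.1 CPM in the controls, at 33.7, 33.6, 46.6 and 37.6 CPM with siRNA 1 and at 33.1, 34.2, 39.9 and 40.5 CPM with siRNA 2. A single siRNA 1 library, replicate 3, lay above the lowest control. Tbx3 fell by 24.0% (adjusted p = 0.00377) and by 25.9% (adjusted p = 0.000796). Tfcp2l1, a grainyhead-family factor and STAT3 target, was at 86.7, 108.9 and 109.0 CPM in the controls, at 60.2, 71.2, 90.9 and 89.5 CPM with siRNA 1 and at 55.5, 58.7, 74.0 and 79.8 CPM with siRNA 2. Its siRNA 1 replicates 3 and 4 overlapped the controls. It fell by 23.0% with siRNA 1 (log2 fold change -0.38, 95% interval -0.57 to -0.19, adjusted p = 0.0106) and fell by 33.9% with siRNA 2 (-0.60, -0.79 to -0.40, adjusted p = 2.85e-05). With siRNA 1 the calls of Nr0b1 and Tfcp2l1 were lost when control replicate 2, control replicate 3, siRNA 1 replicate 1 or siRNA 1 replicate 2 was left out, and that of Tbx3 when control replicate 2 was left out, so that 6 factors were then called.

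**Figure D2:**
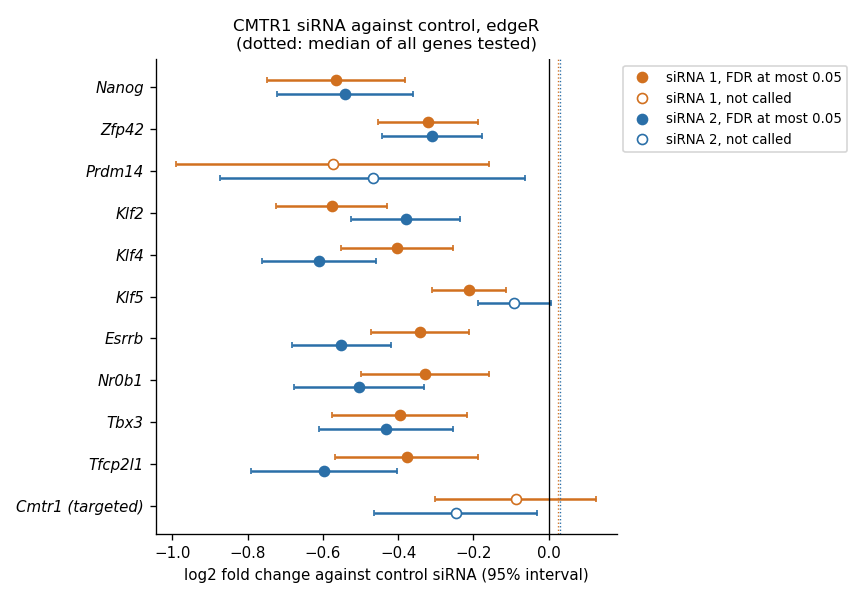
Log2 fold change against control siRNA (horizontal axis) with its 95% interval for the 10 factors and for Cmtr1, with siRNA 1 in orange and siRNA 2 in blue, filled where the adjusted p was at most 0.05, and dotted lines at the median of all genes tested. The point estimates of all 10 factors lie to the left of 0, Klf5 with siRNA 2 (-0.09) nearest to it, and Prdm14 has the widest intervals.

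Read library by library, siRNA 1 replicates 1 to 4 had 10, 9, 6 and 9 of the 10 factors below the lowest control, and siRNA 2 replicates 1 to 4 had 10, 9, 9 and 9. For 6 factors with siRNA 1 and 8 with siRNA 2, all siRNA libraries were below all controls, against 6.23% and 6.99% of the genes tested. The 6 were Nanog, Zfp42, Klf2, Klf4, Klf5 and Nr0b1, and the 8 were those called with siRNA 2. The lowest control was the same library, replicate 1, for all 10 factors. Summed over the factors, the controls held 822.5, 962.1 and 938.1 CPM, siRNA 1 libraries 642.4, 661.0, 787.1 and 743.2 CPM and siRNA 2 libraries 626.3, 665.7, 726.5 and 741.1 CPM, so no siRNA library reached the lowest control.

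The siRNAs were then set against each other, a comparison that does not use the controls. Esrrb alone of the 10 was called, lower with siRNA 2 (log2 difference -0.21, 95% interval -0.33 to -0.08, adjusted p = 0.0312, with 2.96% of all genes called lower), and its libraries overlapped. In either direction, 1196 of the 16073 genes tested were called, so 1 of 10 factors does not stand out from all genes. Without siRNA 1 replicate 2, 3 or 4, or siRNA 2 replicate 1 or 2, the difference of Esrrb ran from -0.22 to -0.17 and was not called (adjusted p = 0.0542 to 0.123), nor was it with DESeq2 (adjusted p = 0.0613). Nanog and Zfp42 were nearly level, at a log2 difference of 0.02 (interval -0.16 to 0.20) and 0.01 (-0.12 to 0.14). Klf2 was higher with siRNA 2 by 0.20 (0.05 to 0.34) and Klf4 lower by 0.21 (-0.36 to -0.06), but neither passed the test (adjusted p = 0.0843 and 0.0723). Klf5 lay higher in every siRNA 2 library than in any siRNA 1 library, as did 6.58% of genes tested, and its difference of 0.12 (0.03 to 0.21) was not called (adjusted p = 0.0995). Tfcp2l1 (-0.22, -0.41 to -0.03, adjusted p = 0.146), Nr0b1 (-0.17, -0.34 to -0.01), Tbx3 (-0.04, -0.21 to 0.14) and Prdm14 (0.11, -0.31 to 0.52) were also not called. Tfcp2l1 passed with no filter on low counts (adjusted p = 0.00961), without siRNA 1 replicate 1 (0.019) and without siRNA 2 replicate 4 (0.0363), and Klf4 without siRNA 1 replicate 2 (0.0308). These intervals do not show that the siRNAs act alike.

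Between libraries of a group the factors deviated together. As a description over 11 libraries that share the 3 groups, the deviations of log2(CPM + 1) from the group mean correlated positively in all 45 pairs of factors, with a median r of 0.70 (0.24 to 0.98). For the 9 factors at a mean of at least 10 CPM, the median over their 36 pairs was 0.73, where all pairs among the 9124 protein-coding genes at that level had a median of 0.01 and an upper quartile of 0.30. The closest pairs were Prdm14 with Esrrb (0.98), Zfp42 with Tfcp2l1 (0.95) and Nanog with Zfp42 (0.94), and the weakest involved Klf5. Control replicate 1 was the lowest of its group for all 10 factors and siRNA 1 replicate 3 the highest for 9, Klf5 being the exception. Replicate 1 was the lowest of its group for 6 factors with siRNA 1 and for 8 with siRNA 2, and in each of the 3 groups replicate 1 lay below the group mean for all 10 factors.

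**Figure D3:**
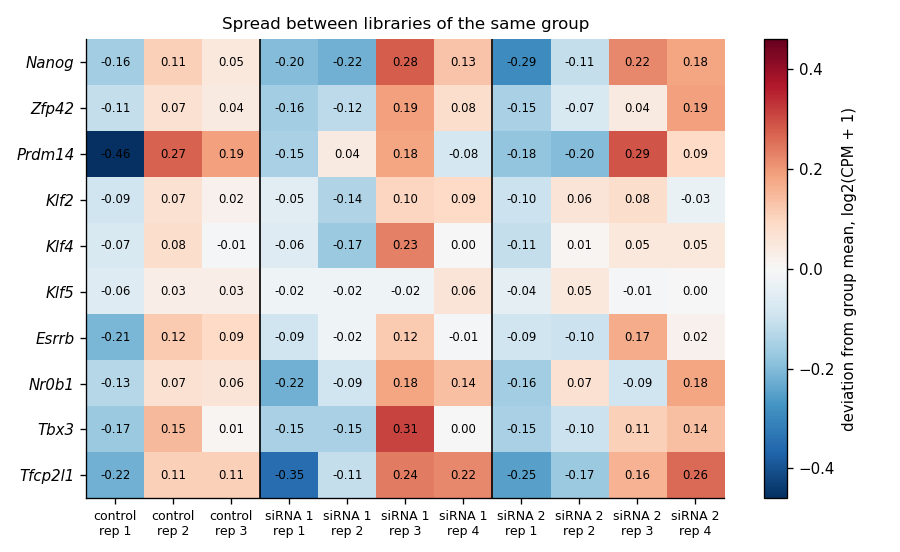
Deviation of log2(CPM + 1) from the mean of its own group for each factor (rows) and library (columns, groups parted by lines), red above and blue below the mean, with the value printed in each cell. Replicate 1 of each group is blue in all 10 rows, and Klf5 has the palest row.

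The genes whose log2(CPM + 1) ran most like that of Nanog over the 11 libraries, among the 9124 protein-coding genes at a mean of at least 10 CPM, were Cobl (r = 0.979), Mreg (0.979), Zfp42 (0.975), Tbx3 (0.968) and Hmces (0.947). Tfcp2l1 was in place 15, Klf4 in place 51, Klf2 in place 55, Nr0b1 in place 69, Esrrb in place 79 and Klf5 in place 380. Cobl, an actin nucleator, had log2 fold changes of -0.46 and -0.45, close in size to those of the factors.

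Levels can be compared between factors only per length. In CPM per kb of merged exon in the control libraries, Zfp42 was the most abundant at 100.0 ± 6.69 (SD, n = 3), followed by Nanog at 38.2 ± 3.71, Klf5 at 32.0 ± 1.15, Klf2 at 28.4 ± 1.68, Nr0b1 at 25.9 ± 2.04, Esrrb at 25.1 ± 3.11, Klf4 at 19.4 ± 1.08, Tfcp2l1 at 10.8 ± 1.36, Tbx3 at 7.53 ± 0.845 and Prdm14 at 2.18 ± 0.653. The control ranges of Klf2 and Nr0b1, and of Nr0b1 and Esrrb, overlapped, and those of the other neighbours in this order did not. Zfp42 stood at the 97.8th percentile of the genes tested and Prdm14 at the 33.2nd. Reads of the factors were largely their own: of the 75-base words of each transcript set, 4.4% in Zfp42 occur also in the pseudogene Zfp42-ps1 and 1.6% in Nanog also in Nanog-ps1, and Tbx3 and Tfcp2l1 share under 1% with Tbx3os1 and Gm23497.

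The core pluripotency factors had median log2 fold changes nearer to 0 than the naive factors (-0.06 and -0.03, against -0.39 and -0.49), a difference that was not tested. Single genes overlapped: with siRNA 2, Klf5 was at -0.09 and the core factors Sox2 and Utf1 at -0.12. Of 6 core factors (Pou5f1, Sox2, Sall4, Utf1, Lin28a and Dppa4), only Pou5f1 was called, lower with siRNA 1 (log2 fold change -0.16, adjusted p = 0.0332). The call stayed in 12 of 19 alternatives. It was lost without any 1 of the control libraries, without siRNA 1 replicate 1, 2 or 4, and with a replicate block. At -0.03 with siRNA 2 it was not called (adjusted p = 0.72). Sox2 was at -0.04 (adjusted p = 0.738) and -0.12 (adjusted p = 0.125). Of 14 other genes of the naive state, 8 were called lower with siRNA 1, against 1.97% of all genes tested. With siRNA 2, 6 were called lower, against 3.55%. None was called higher, and the medians were -0.19 and -0.13 on the log2 scale. Gbx2 lay at 0.20 with siRNA 1, not called, but was called higher there with a replicate block. Over 19 alternatives Fbxo15 kept its siRNA 1 call in 10 and Nr5a2 its siRNA 2 call in 9. Zfp57 kept its calls in 14 with siRNA 1 and in 9 with siRNA 2. Jam2, a junctional adhesion molecule, fell by 0.56 and 0.47 on the log2 scale (adjusted p = 4.69e-06 and 3.44e-05), and Tdh, a mitochondrial enzyme of threonine breakdown, by 0.44 and 0.29 (adjusted p = 1.67e-05 and 0.00197). Mybl2, a cell-cycle regulator, and Pecam1, a surface protein of naive cells, were called with both as well. Spp1, which encodes osteopontin, fell with siRNA 1 (-0.32, adjusted p = 0.00667) and was at 0.15 with siRNA 2 (adjusted p = 0.195). Dppa5a fell with siRNA 1 (-0.25, adjusted p = 0.00313).

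**Figure D4:**
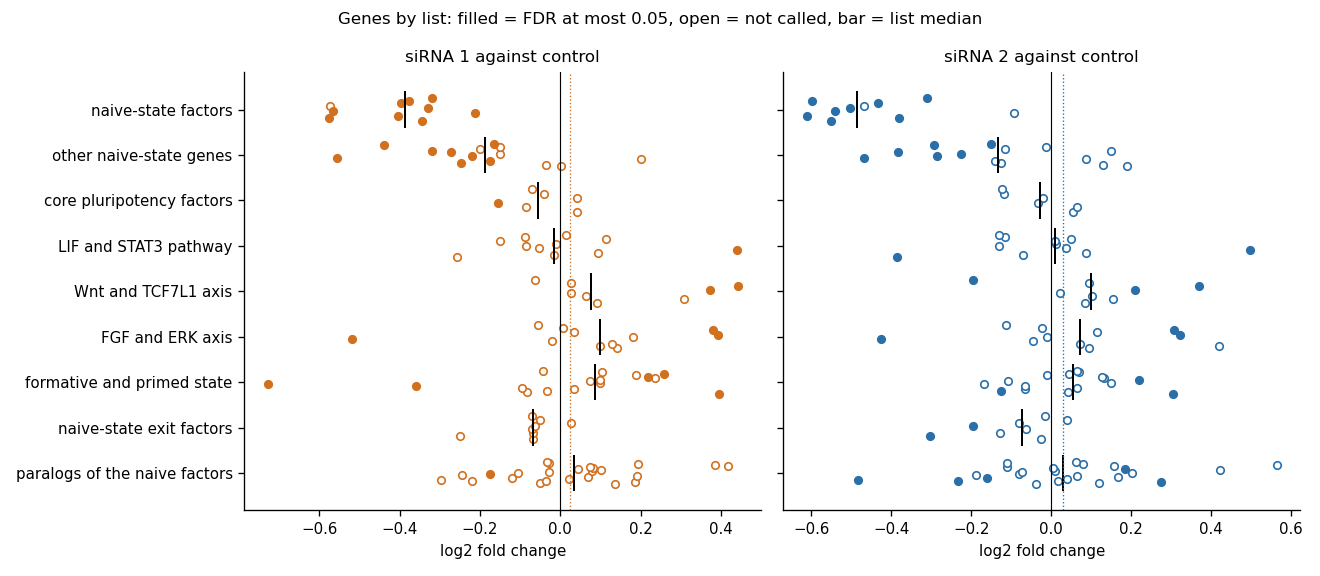
Log2 fold change (horizontal axis) of each tested gene of 9 lists with siRNA 1 (left) and siRNA 2 (right), filled where the adjusted p was at most 0.05, with a bar at the list median and a dotted line at the median of all genes. The naive-state factors have the lowest list medians, -0.39 and -0.49, and the core factors have medians of -0.06 and -0.03.

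Of the pathways upstream of the factors, all genes of 3 lists were tested. Of 11 genes of the LIF and STAT3 pathway, only Jak2, a kinase that binds cytokine receptors, rose with siRNA 1 (0.44, adjusted p = 0.0459). With siRNA 2, Jak2 rose (0.50, adjusted p = 0.0108) and Bcl3, a nuclear IκB protein, fell (-0.38, adjusted p = 0.00321). The Jak2 call stayed in 9 of 19 alternatives with siRNA 1, TMM factors and DESeq2 being among those that lost it, and in 17 with siRNA 2, where DESeq2 lost it too. With TMM factors or DESeq2, Lifr was called lower with siRNA 2. Stat3 was at -0.09 and -0.11 and Lifr, the LIF receptor, at -0.08 and -0.13, none of them called. Of 8 genes of the Wnt and TCF7L1 axis, Lef1, a TCF-family factor, rose with both (0.44, adjusted p = 4.42e-06, and 0.37, adjusted p = 4.07e-05), as did Gsk3b, the kinase that marks beta-catenin for destruction (0.37 and 0.21, adjusted p = 1.48e-05 and 0.01). Tcf7l1 fell with siRNA 2 (-0.20, adjusted p = 0.0315). Of 11 genes of the FGF and ERK axis, Fgf4, the FGF ligand made by ESCs, fell with both (-0.52, adjusted p = 3.17e-07, and -0.42, adjusted p = 2.9e-06), while Fgfr2 (0.39 and 0.32) and Mapk3, which encodes ERK1 (0.38 and 0.31), rose with both. The shares called were thus 1 of 11 and 2 of 11 for the LIF and STAT3 pathway and 2 of 8 and 3 of 8 for the Wnt and TCF7L1 axis. For the FGF and ERK axis they were 3 of 11 with each siRNA. In the main edgeR fit all were above the 4.67% and 9.72% of all genes, a difference that rests on few genes and was not tested. With TMM factors, DESeq2 or a replicate block, no gene of the LIF and STAT3 pathway was called with siRNA 1.

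Genes of the formative and primed states moved in both directions. Of 16, 3 rose with siRNA 1 (Cdh2 by 0.39, Sox4 by 0.26 and Sox11 by 0.22 on the log2 scale) and 2 fell (Lefty2 at -0.73 and Lefty1 at -0.36, antagonists of Nodal). With siRNA 2, Cdh2 (0.30, adjusted p = 0.00483) and Pou3f1 (0.22, adjusted p = 0.0169) rose and Dnmt3b fell (-0.13, adjusted p = 0.0497). These calls were not equally firm: over 19 alternatives Sox11 kept its call in 13 (not with TMM factors or DESeq2), Lefty1 in 17 and Pou3f1 in 14 (neither with DESeq2), and Dnmt3b in 7 (not with exactTest). Otx2, a driver of the formative state, was at 0.07 (adjusted p = 0.635) and -0.11 (adjusted p = 0.34). Of 8 factors linked to exit from the naive state, none was called with siRNA 1, where edgeR's exactTest called Fnip1 alone and DESeq2 none. Fnip1 (-0.30, adjusted p = 0.0137) and Tcf7l1 fell with siRNA 2. Of 33 paralogs of the naive factors 24 were tested. With siRNA 1, 1 fell (Klf9, -0.18, adjusted p = 0.0278, a call kept in 14 of 19 alternatives), against 4.67% of all genes called. With siRNA 2, 5 were called, against 9.72% of all genes: Klf3, Klf12 and Klf15 fell and Klf11 and Prdm2 rose. DESeq2 called Klf3 alone of these, and Klf3 kept its call in 7 of 19 alternatives and was lost with exactTest.

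The tested genes nearest to the factors on the chromosome were looked at in the same way. No limit was set on distance, which ran from 11.9 kb (Ncoa2, by Prdm14) to 7110 kb (Pola1, by Nr0b1). Of 20 nearest tested neighbours, 1 on each side of each factor, none was called lower and 2 were called higher with siRNA 1 in the edgeR test, and 2 were lower and 3 higher with siRNA 2. These are 2 of 20 and 5 of 20, against 4.67% and 9.72% of all genes. Dppa3, 77.2 kb from Nanog and itself a naive-state gene, was at -0.04 and 0.13 (adjusted p = 0.947 and 0.682), and Slc2a3, 13.2 kb to the other side, fell with siRNA 2 (-0.20, adjusted p = 0.00376). Slco5a1, 121.0 kb from Prdm14, rose with both (0.39, adjusted p = 0.022, and 0.85, adjusted p = 6.84e-08). Fat1, 1630 kb from Zfp42, rose with siRNA 1 (0.21, adjusted p = 0.00503).

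Markers of other cell types were summed per library beside these results. All 6 ESC markers were above 1 CPM, and their sum, to which Nanog, Zfp42 and Esrrb contribute, was 1310 to 1420 CPM in the controls, 1090 to 1250 with siRNA 1 and 1180 to 1250 with siRNA 2. The sums of the 10 primitive endoderm markers (643.0 to 819.0, 575.0 to 836.0 and 598.0 to 693.0 CPM) and of the 8 trophoblast markers (68.4 to 84.9, 77.1 to 78.8 and 71.3 to 76.9 CPM) overlapped between groups. Of the endoderm markers, Col4a1 (-0.34, adjusted p = 0.0116) and Lama1 (-0.29, adjusted p = 0.0335) were called lower with siRNA 2 in the edgeR test. The list median there was -0.20. These calls stayed in 17 and 13 of 19 alternatives, and DESeq2 made neither. The sums of 10 germ layer markers lay above the controls in every siRNA library (159.0 to 161.0, 172.0 to 195.0 and 168.0 to 198.0 CPM), where Nes, a neural progenitor filament, was the only one called, up by 0.26 and 0.45 on the log2 scale (61.6 CPM in controls, 73.6 and 83.8 CPM). The other germ layer markers did not share that with siRNA 2: T was at -0.63, Pax6 at -0.30, Kdr at 0.00 and Tubb3 at 0.01, and the list median was 0.01. With siRNA 1 the list median was 0.22. There Pax6 was at 0.38, Sox1 at 0.26 and Kdr at 0.18, against -0.07 for T and -0.02 for Tubb3. None of these was called in the edgeR test, though exactTest called Sox1 with siRNA 1. With siRNA 2 alone the sums lay above the other groups for 8 markers of the 2-cell-like state (28.9 to 33.4, against 19.3 to 20.1 in controls and 17.9 to 20.3 with siRNA 1) and for 8 fibroblast markers (37.6 to 42.8, against 25.9 to 32.3 and 29.1 to 32.8). Zscan4d, Zscan4f and Usp17lc, which belong to families of near-identical copies, and Col1a1 and Dcn rose with siRNA 2, and Col3a1 fell, but DESeq2 called only Zscan4d and Col1a1 of these 6. No listed marker was at 0 in all libraries, and the part of these markers in the values of the naive factors was not tested.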

How the data were processed

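RNA-seq libraries of 11 samples were analysed, 3 of control siRNA and 4 of each CMTR1 siRNA. The authors deposited counts, whole numbers of reads per Ensembl gene. The methods give Cutadapt for trimming, STAR for alignment to GRCm38, Picard for removing duplicates and featureCounts for counting. In 10 files the closing summary follows the HTSeq-count layout instead, and their reads in no single gene, 46.51 to 51.1% of those listed, were left out. The library kit marks strand; the strand setting of the counting is not given in the sources used here.

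Symbols were taken from the GENCODE M21 annotation, which held 54809 of the 54838 identifiers. Counts were scaled by total counts in genes. Genes above 1 CPM in at least 4 libraries entered the quasi-likelihood test of edgeR 4.0.16 (R 4.3.3) with 1 model of the 3 groups, with Benjamini-Hochberg adjustment and a threshold of 0.05. The test was tried first on simulated counts. Log values used a pseudocount of 1, and intervals are 95%. Percent changes and folds are those of the fitted log2 fold change.

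The members and all gene lists were chosen with earlier results of these data known. Named were the 10 factors, Cmtr1, the 5 genes most like Nanog, and of each other list the called genes, at most the 6 with the lowest adjusted p, plus Pou5f1, Sox2, Stat3, Lifr, Fgf4, Dnmt3b and Otx2 whether called or not. Neighbouring genes and genes of a list named beyond that rule were chosen after their values were seen. Alternatives were TMM factors, DESeq2 1.42.0, exactTest, 2 other filters, a fit of the 2 groups compared, a replicate block, library sizes without Gm26917 (4.86 to 6.34% of counts) and each library left out in turn. In a comparison with control, leaving out a library of the other siRNA, or changing the filter, hardly moved the estimates of the factors. Such alternatives put a call to a weaker test than leaving out a library that was compared. Promoter sequences are from RefSeq (GRCm38.p6).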

Additional observations from a re-analysis of the deposited data

Results flagged for a closer look

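Klf5 in the siRNA 1 group stood out by its replicate 4, at 150.1 CPM against 141.3 to 142.0 CPM in the other 3 libraries. The gap to the nearest of them was 0.924 of the group's range. Of 20 groups of 4 libraries looked at, this was the 1 flagged, and chance flags about 1 in 20. Esrrb differed between the siRNAs, lower with siRNA 2 by a log2 difference of -0.208 (adjusted p = 0.0312 in the edgeR test), with 103.5 ± 9.46 CPM (SD, n = 4) against 119.5 ± 7.61 CPM (n = 4).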

How the results depend on the processing

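Over 19 alternatives, all 10 factors kept a log2 fold change below 0 with each siRNA against control. Nanog, Zfp42, Klf2, Klf4, Klf5 and Esrrb were called with siRNA 1 in every one, and with siRNA 2 the 8 called factors were. Leaving out 1 library gave 6 to 10 factors called with siRNA 1, 8 to 9 with siRNA 2 and 0 to 2 between the siRNAs. Prdm14 was called without control replicate 1 (-0.80 and -0.70). DESeq2 did not call Tfcp2l1 with siRNA 1 (-0.40, adjusted p = 0.235, against 1.61e-07 to 0.111 over its other alternatives).

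Genes called over the whole table ran from 355 to 852 with siRNA 1, from 807 to 1658 with siRNA 2 and from 724 to 1365 between the siRNAs when 1 library was left out. The largest drops came without control replicate 2, control replicate 3 or siRNA 1 replicate 2 with siRNA 1 (355, 450 and 425), without control replicate 2, control replicate 3 or siRNA 2 replicate 1 with siRNA 2 (916, 807 and 1007), and without siRNA 1 replicate 1, siRNA 1 replicate 2 or siRNA 2 replicate 1 between the siRNAs (737, 724 and 751). DESeq2 called 958 with siRNA 2 and 738 between the siRNAs, against 1562 and 1196. Between the siRNAs, DESeq2 called 0 factors (edgeR's exactTest 1), and 2 were called with no filter on low counts.

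Same-numbered libraries correlated in their deviations over all genes tested by 0.0107 on average (-0.078 to 0.0835). As 4 of 11 correlated best with their own number, the numbers were not taken to pair the samples. A correlation over all genes cannot exclude a replicate effect shared by these factors, and replicate 1 of each group lay below the group mean for all 10 factors. With a replicate block, 840, 1486 and 1242 genes and 9, 8 and 2 factors were called in the 3 comparisons, Tfcp2l1 (adjusted p = 0.0162) joining Esrrb between the siRNAs. The calls of Pou5f1, Jak2 and Fbxo15 with siRNA 1 and of Dnmt3b, Klf3, Klf12 and Lama1 with siRNA 2 were lost. With siRNA 1 the block moved the log2 fold change of Tfcp2l1 from -0.377 to -0.472, that of Nanog from -0.565 to -0.630 and that of Esrrb from -0.343 to -0.345.

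Between the siRNAs the sign turned on leaving out 1 library for differences near 0. Nanog ran from -0.051 to 0.127, Zfp42 from -0.059 to 0.078, Prdm14 from -0.022 to 0.194 and Tbx3 from -0.093 to 0.080. The causes were not tested. Prdm14 had the fewest reads of the 10, 22 to 55 per library.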
